A study of Arabidopsis thaliana with 15 samples.

Results

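The genes described here encode proteins of the cytosolic ribosome of Arabidopsis thaliana. They were chosen by function as a named list of 48 gene identifiers, with earlier results of these data known. The list is not the whole family, as 73 further genes of the table are annotated as cytosolic ribosomal proteins. The count table held 47 of these among its 14190 genes, and the last, AT1G26910 (RPL10B), was not analysed here. The 47 genes encode 26 proteins, with 24 genes of the large (60S) subunit, 20 of the small (40S) subunit and 3 of the acidic stalk.

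A cytosolic ribosome holds a single copy of most of its proteins, arranged around the ribosomal RNA of a 40S subunit, which reads the mRNA, and a 60S subunit, which joins the amino acids. In plants nearly every one of these proteins is encoded by a small family of paralogues whose products are very alike, and mutants in single members often show narrow, pointed or otherwise altered leaves. Many plant ribosomal protein promoters carry short elements called site II and the telo box, which are known from genes of dividing cells.

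Transcripts were measured in whole 2-week-old seedlings of the wild-type ecotype Col-0 by bulk MARS-seq, which reads the 3' ends of polyadenylated RNA. The 15 libraries formed 5 groups of 3: no agent, or the toxin cercosporin at a dose of 0.1, 1, 10 or 100 µM. This fungal toxin produces reactive oxygen in light. Treated seedlings spent 1 h in the toxin in darkness, were washed 3 times and stood for 30 min in light of 30 µE, whereas the control plates stayed in light. A difference from the controls therefore holds toxin, darkness and washing together, and the comparison of 100 µM with the 3 lower doses holds the light regime constant. The labels do not say whether replicates were grown apart, so the p-values rest on a sample-to-sample spread that could be technical only. In whole seedlings, fewer cells of a type and less RNA per cell cannot be told apart.

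Library totals ran from 834190 to 4554702 counts. Levels are given as CPM, counts divided by the scaled library total and multiplied by 1e6, and changes as log2 estimates of edgeR's quasi-likelihood test with their standard error. A gene was called higher or lower where the Benjamini-Hochberg adjusted p over all 10374 genes tested was under 0.05. Of the 47 ribosomal genes, 41 passed the filter on low counts, and the other 6 (AT4G10450, RPL16A, RPL23AB, AT5G35530, RPS5B and AT1G34030) are given as counts. Replicate 1 of 100 µM stood apart from the other libraries of its group. It was at least 2-fold below both of them for 7 of the 41 ribosomal genes (17.1%) and for 11.4% of all genes tested. Its summed shoot markers were at 7241 CPM, against 19179 and 19652 CPM in replicates 2 and 3, and its root markers at 310.2 CPM against 119.8 and 242.3 CPM. The shoot sum is mostly RBCS1A, the small Rubisco subunit, at 5304 CPM in replicate 1 and 16980 and 17230 CPM in the other libraries. GAPA was also lower there, at 172.0 CPM against 418.4 and 391.5 CPM. RCA was at 745.6 CPM against 797.5 and 838.6 CPM, and CA1 at 576.9 CPM against 659.0 and 746.5 CPM. GLDP1 was not the lowest there, at 442.6 CPM against 324.1 and 448.8 CPM. Both marker sets were detected in every library. The sample codes of all 100 µM libraries carry a digit that no other group shares, and what it stands for is not given, so it cannot be told apart from the dose.

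The genes on which the results turn belong to 3 protein families, and their promoters are shown first because the neighbouring L9 genes rose together while the S18 and L10 paralogues parted. Each line gives the 250 bases before the annotated transcript start, 5' to 3' on the strand of the gene, from RefSeq TAIR10.1, matched by gene identifier. Capitals mark site II elements, searched as TGGGCC and TGGGCT on both strands. The first pair encodes protein L9 and lies at chr1:12010629-12010878 and chr1:12022975-12023224, both on the plus strand.

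AT1G33120 (L9): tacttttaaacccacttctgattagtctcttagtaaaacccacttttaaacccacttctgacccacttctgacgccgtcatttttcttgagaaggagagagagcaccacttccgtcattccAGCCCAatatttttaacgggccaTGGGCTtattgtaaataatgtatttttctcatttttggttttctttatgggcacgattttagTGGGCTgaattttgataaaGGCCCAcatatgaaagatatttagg

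PGY2 (L9): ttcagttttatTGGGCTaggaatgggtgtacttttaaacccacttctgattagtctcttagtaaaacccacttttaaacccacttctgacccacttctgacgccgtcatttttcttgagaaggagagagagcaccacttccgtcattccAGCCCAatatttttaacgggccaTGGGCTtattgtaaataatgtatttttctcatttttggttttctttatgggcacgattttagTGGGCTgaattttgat

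The 2 windows share an unbroken run of 222 bases, which starts 250 bases before the annotated start of AT1G33120 and 222 bases before that of PGY2. Each window holds 4 site II elements, of which 3 lie in the shared run. The next pair encodes S18 and lies at chr1:8067614-8067863 for PFL and chr4:6173462-6173711 for RPS18C, both on the plus strand. Neither window holds a site II element or a telo box (AAACCCTA on either strand).

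PFL (S18): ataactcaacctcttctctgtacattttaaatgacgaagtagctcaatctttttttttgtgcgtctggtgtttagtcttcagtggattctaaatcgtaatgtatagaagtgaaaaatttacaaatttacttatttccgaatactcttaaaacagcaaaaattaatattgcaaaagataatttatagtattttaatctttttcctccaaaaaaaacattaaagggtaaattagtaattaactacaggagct

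RPS18C (S18): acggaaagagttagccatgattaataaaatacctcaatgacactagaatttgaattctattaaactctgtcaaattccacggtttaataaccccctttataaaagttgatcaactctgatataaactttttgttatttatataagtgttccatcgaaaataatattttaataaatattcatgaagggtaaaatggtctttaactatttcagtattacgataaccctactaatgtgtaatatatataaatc

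The last pair encodes L10 and lies at chr1:4887864-4888113 for RPL10A and chr1:24838840-24839089 for RPL10C, both on the plus strand. Each window has 1 site II element, which starts 42 bases before the annotated start in RPL10A and 10 bases before it in RPL10C.

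RPL10A (L10): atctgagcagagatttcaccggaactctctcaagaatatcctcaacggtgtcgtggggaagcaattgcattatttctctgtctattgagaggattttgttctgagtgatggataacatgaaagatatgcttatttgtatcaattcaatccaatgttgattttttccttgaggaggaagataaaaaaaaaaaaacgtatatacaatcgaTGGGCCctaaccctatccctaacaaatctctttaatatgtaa

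RPL10C (L10): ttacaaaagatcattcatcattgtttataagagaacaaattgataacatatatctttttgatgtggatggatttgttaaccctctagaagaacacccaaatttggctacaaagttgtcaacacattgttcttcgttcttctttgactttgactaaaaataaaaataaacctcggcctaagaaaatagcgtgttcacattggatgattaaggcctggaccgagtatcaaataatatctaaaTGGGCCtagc

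Across the 47 ribosomal genes, 33 windows (70.2%) held site II and 6 (12.8%) the telo box. The shares were 22.3% and 3.16% among 13873 genes of the table and 17.7% and 4.69% among all 31463 annotated genes with an mRNA. A window with both (5 of the 47) was counted under each, whether or not the elements overlapped. Site II stood in 4 of the 5 genes called higher at 100 µM (below), in 10 of the 15 called lower and in 16 of the 21 that did not pass. The telo box stood in 0, 4 and 1 of these.

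The 47 genes together took 1.70% to 1.79% of all counts in the control libraries. At the lower doses the share ranged from 1.73% to 1.89% (0.1 µM), from 1.74% to 2.10% (1 µM) and from 1.83% to 2.09% (10 µM). At 100 µM it was 1.25% to 1.35%, below every library of every other group. The 40S genes held 0.608% to 0.656% of counts at 100 µM and 0.889% to 0.953% in the controls. The 60S genes held 0.493% to 0.530% and 0.625% to 0.632%. The 3 stalk genes held 0.149% to 0.200% and 0.188% to 0.203%, which overlap.

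**Figure D1:**
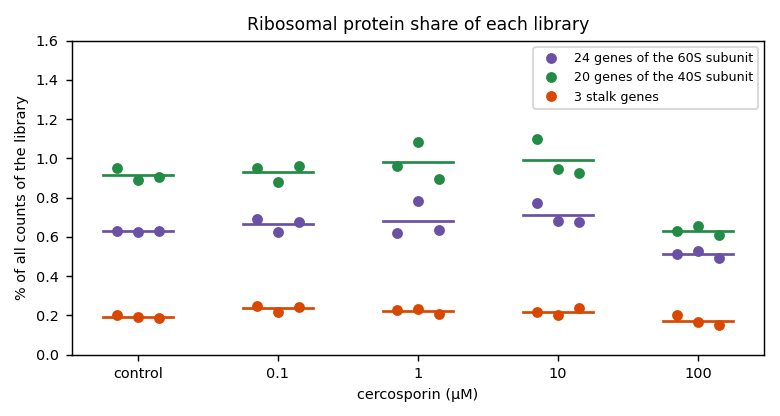
Share of all counts (y axis, percent, from 0) taken by the 60S, 40S and stalk genes in each of the 15 libraries (points) by cercosporin dose in µM (x axis), with the group mean as a line. The 40S and 60S points at 100 µM lie below all others, the 40S genes at 0.608% to 0.656%.

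At 100 µM, 15 of the 41 tested ribosomal genes were called lower than in the controls, mostly by moderate amounts, and 5 genes with low control levels were called higher. The other 21 did not pass. Of all genes tested, 14.6% were called lower and 18.1% higher. The median log2 change of the 41 was -0.39, against -0.02 over all genes tested, and the estimates of 32 of the 41 were below 0, those that did not pass included. By subunit, the 40S genes gave 8 lower and 1 higher of 17 with a median of -0.51, the 60S genes 6 lower and 4 higher of 21 with a median of -0.22, and the stalk genes 1 lower of 3. The 100 µM libraries lay wholly below the controls for 18 of the 41 genes (19.6% of all genes tested) and wholly above for 6 (22.2%). Genes with more counts pass the test at smaller changes. Among the 2895 genes with a mean of 50 CPM or more, 23.5% were called lower and 16.3% higher, and among the 33 ribosomal genes of that level 15 were lower and 1 higher.

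The 5 genes called higher encode L9, L10, L5 and S18, and all had control means of 6.99 to 22.4 CPM. AT1G33120 and PGY2 encode L9, a 60S protein near the base of the stalk, and PGY2 is known as PIGGYBACK2 from its leaf phenotype. AT1G33120 was at 1.85, 25.4 and 15.1 CPM in the controls and at 136.9, 82.5 and 94.5 CPM at 100 µM. Its 9 libraries at lower doses lay between 7.98 and 24.9 CPM. The lowest 100 µM library was thus above every other library of the study. The change was 2.93 ± 0.49 (SE, n = 3 per group, edgeR adjusted p = 0.000191). PGY2 was at 12.0, 34.0 and 21.1 CPM in the controls and at 181.0, 151.3 and 149.8 CPM at 100 µM, and between 8.43 and 67.4 CPM at lower doses. The groups did not overlap, although replicate 2 of 1 µM, the smallest library, reached 67.4 CPM. The change was 2.86 ± 0.55 (edgeR adjusted p = 0.000684).

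The coding sequences of these L9 genes were 99.15% identical, and the last 300 bases of their transcripts 56.2%. Near-identical stretches of 90 bases at their 3' ends were shared with the third L9 gene, AT4G10450, so reads could have been split among the 3. AT4G10450 itself had 2 to 3 counts in each control, 0 to 10 at lower doses and 5, 2 and 8 at 100 µM. Within L9, AT1G33120 held 31.5% ± 16.8 (SD, n = 3) of the family's counts in the controls and 38.6% ± 3.83 at 100 µM. The L9 family summed rose by 2.83 ± 0.47 (edgeR adjusted p = 0.000159).

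RPL10C, also named SAG24 for its place among senescence-associated genes, encodes L10, which joins the 60S subunit late in its maturation. It was at 2.31, 13.3 and 5.40 CPM in the controls and at 35.0, 15.7 and 29.9 CPM at 100 µM, with 5.43 to 14.3 CPM at lower doses. All 100 µM libraries were above all others, replicate 2 by a small margin. The change was 2.01 ± 0.49 (edgeR adjusted p = 0.00404). Its paralogue RPL10A, known as SAC52, was at 357.2, 435.5 and 398.5 CPM in the controls and at 334.8, 429.2 and 405.9 CPM at 100 µM. These ranges overlapped, and the difference of -0.03 ± 0.15 did not pass (edgeR adjusted p = 0.917).

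RPL5B encodes L5, which carries the 5S ribosomal RNA into the 60S subunit together with L11. It was at 12.9, 19.6 and 11.9 CPM in the controls and at 46.7, 25.5 and 36.1 CPM at 100 µM. The change was 1.31 ± 0.47 (edgeR adjusted p = 0.0394), and the call was lost without control replicate 1 or 3 or without 100 µM replicate 1 or 3. Against the lower doses, where 1 µM replicate 2 was at 30.9 CPM and overlapped the 100 µM libraries, it was also called higher. RPL5A, its paralogue, was at 5.08 to 6.48 CPM in the controls and at 13.6, 9.82 and 6.53 CPM at 100 µM, and its difference of 0.75 ± 0.44 did not pass. L11 is represented by RPL16A, which the filter on low counts left out. It had 1, 0 and 1 counts in the controls, 0 to 3 at lower doses and 9, 4 and 18 at 100 µM. Without the filter it was called higher by edgeR (adjusted p = 0.00944), as it was by DESeq2 (adjusted p = 0.0209).

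**Figure D2:**
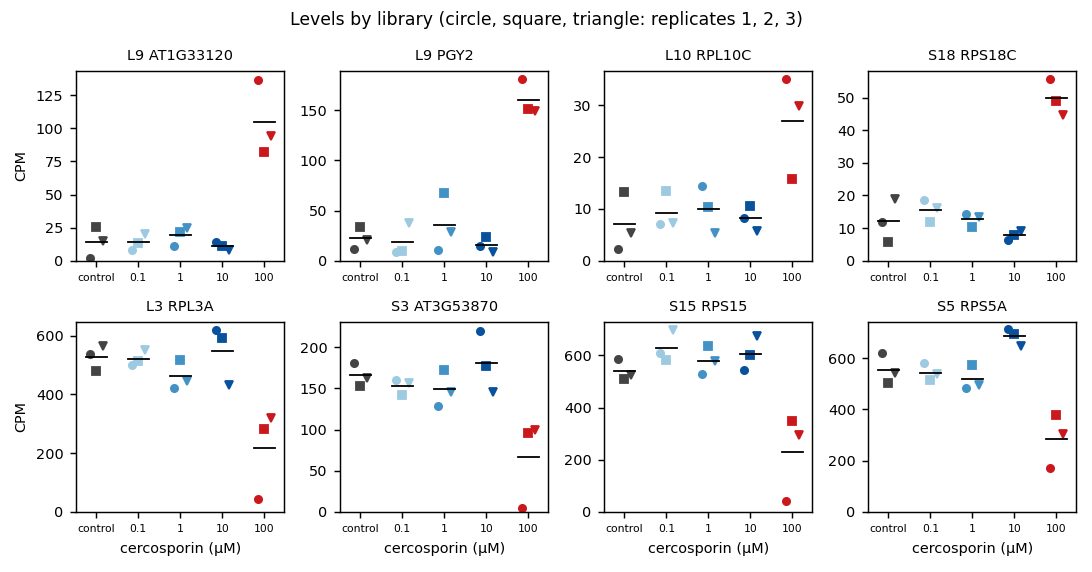
Levels in CPM (y axes, linear from 0) of 4 genes called higher and 4 called lower at 100 µM, by dose in µM (x axes). Points are libraries, shaped by replicate, and lines are group means. Replicate 1 of 100 µM (circle) was at 45.4 CPM for RPL3A, 4.54 CPM for AT3G53870 and 42.8 CPM for RPS15, far below replicates 2 and 3.

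Protein S18 sits in the head of the 40S subunit and had paralogues called in opposite directions. PFL, named for the pointed first leaves of its mutant, was at 302.3, 271.7 and 273.2 CPM in the controls and at 138.2, 257.3 and 201.1 CPM at 100 µM. It lay between 277.1 and 373.4 CPM at lower doses. All 100 µM libraries were below all others, by a fold of 0.701 against the controls (log2 change -0.51 ± 0.18, edgeR adjusted p = 0.0354). That call was lost without control replicate 1 or 3 or 100 µM replicate 1 or 3, and its edgeR adjusted p without 100 µM replicate 1 was 0.113. It was also lost with upper quartile scaling, with thinned counts and with only the compared groups fitted. RPS18C was at 12.0, 5.77 and 18.9 CPM in the controls, 6.32 to 18.5 CPM at lower doses and 55.8, 49.1 and 44.7 CPM at 100 µM. The groups were well apart, and the change was 2.01 ± 0.30 (edgeR adjusted p = 6.71e-05). The 3' end of RPS18C lies inside AT4G09810 on the opposite strand, and whether counting used strand is not given in the sources used here. The third S18 gene, AT1G34030, had 1, 1 and 0 counts in the controls and 2, 6 and 11 at 100 µM and was left out by the filter. At 10 µM it had 2, 2 and 6 counts. Replicate 1 of 100 µM, at 1.30 CPM, lay within the 0.604 to 1.33 CPM of the 10 µM libraries. Against the controls, AT1G34030 was called higher by edgeR without the filter (adjusted p = 0.0185) and by DESeq2 (adjusted p = 0.043).

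RPS18C made up 4.12% ± 2.21 (SD, n = 3) of S18 counts in the controls, 4.24% ± 0.732 at 0.1 µM, 4.15% ± 0.840 at 1 µM and 2.41% ± 0.227 at 10 µM. At 100 µM it made up 20.7% ± 6.87. Because each read comes from a transcript's end, these shares carry no length scaling. They are shares of reads, amplification copies included, and not of molecules. The 3 S18 genes summed differed by -0.24 ± 0.16 from the controls, which did not pass (edgeR adjusted p = 0.276). RPL10C likewise went from 1.65% ± 1.19 of the summed RPL10A and RPL10C counts in the controls to 6.62% ± 2.98 at 100 µM. That sum, which lacks RPL10B, differed by 0.03 ± 0.15 (edgeR adjusted p = 0.89).

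The 15 genes called lower had control means of 119.8 to 1412 CPM and changes of -1.30 to -0.43, that is, folds of 0.405 to 0.745. For 12 of them the change was under 1 on the log2 scale. The 3 with larger changes were RPL3A, AT3G53870 and RPS15, and in each of these replicate 1 of 100 µM was far below the other 2 libraries.

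RPL3A encodes L3, which reaches to the peptidyl transferase centre. It was at 538.1, 481.0 and 563.1 CPM in the controls and at 45.4, 281.9 and 320.7 CPM at 100 µM. All libraries at 100 µM were below all others, and the change of -1.28 ± 0.39 (edgeR adjusted p = 0.0173) was -0.82 ± 0.16 without replicate 1 (adjusted p = 0.000666). AT3G53870 encodes S3, at the entry of the mRNA channel. It was at 181.4, 153.4 and 163.1 CPM in the controls and at 4.54, 96.3 and 100.0 CPM at 100 µM. The groups did not overlap. The change was -1.30 ± 0.49 (edgeR adjusted p = 0.0473), and -0.77 ± 0.18 without replicate 1 of 100 µM (edgeR adjusted p = 0.00273). The call was lost when any 1 control was left out. It was also lost under other scaling factors, with thinned counts, with only the compared groups fitted and in DESeq2.

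RPS15 encodes S15, near the decoding site. It was at 584.7, 509.9 and 526.4 CPM in the controls and at 42.8, 346.7 and 296.6 CPM at 100 µM. The groups did not overlap. The change was -1.24 ± 0.40 (edgeR adjusted p = 0.0244), and -0.77 ± 0.15 without replicate 1 of 100 µM (edgeR adjusted p = 0.000663). The call was lost without control replicate 1, with only the compared groups fitted and in DESeq2. The 3' end of RPS15 lies inside AT1G04260 on the same strand. That gene was at 0.514 CPM in the controls and 8.68 CPM at 100 µM on average, so the 2 differed in opposite directions, and how reads were divided between them was not tested. The S3 paralogue AT2G31610 was at 87.2, 95.7 and 107.4 CPM in the controls and at 16.9, 74.6 and 105.9 CPM at 100 µM, which overlap. AT5G35530 had 0 to 16 counts in the 15 libraries and was not tested.

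Several further genes of the 40S subunit were lower with tighter spread. RPS5A, whose promoter is widely used to drive genes in dividing cells, was at 619.3, 504.7 and 543.1 CPM in the controls and at 169.4, 376.2 and 302.8 CPM at 100 µM. The groups did not overlap, and the change was -0.98 ± 0.20 (edgeR adjusted p = 0.00119). RPS6B encodes S6, the protein phosphorylated by S6 kinase downstream of TOR, and fell by 0.74 on the log2 scale. RPS13A (S13), known as PFL2, fell by 0.75, AT5G15200 (S9) by 0.52 and P40 (Sa) by 0.43. P40 was the only gene called lower whose 100 µM libraries overlapped the controls. Its call was lost without control replicate 1 or 3 or without 100 µM replicate 2 or 3. It was also lost under other scaling factors, with thinned counts, with only the compared groups fitted and in DESeq2. Of the 60S genes, both L4 genes fell, AT3G09630 by 0.67 and AT5G02870 by 0.54, as did AT4G36130 (L8) by 0.58, AT2G37190 (L12) by 0.52 and RPL24A (L24) by 0.43. The call of RPL24A was lost without control replicate 1 or 2 or 100 µM replicate 1 or 3. It was also lost under other scaling factors, with thinned counts and with only the compared groups fitted. AT3G09200, which encodes the stalk base protein P0 that helps to recruit elongation factors, fell by 0.64 (edgeR adjusted p = 0.00295). The 3' end of AT4G36130 matched that of its L8 paralogue EMB2296 over 183 bases at 91.8% identity. The 3' ends of AT4G36130, RPL24A and P40 lie inside other genes on the opposite strand. How reads were divided in these cases was not tested.

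**Figure D3:**
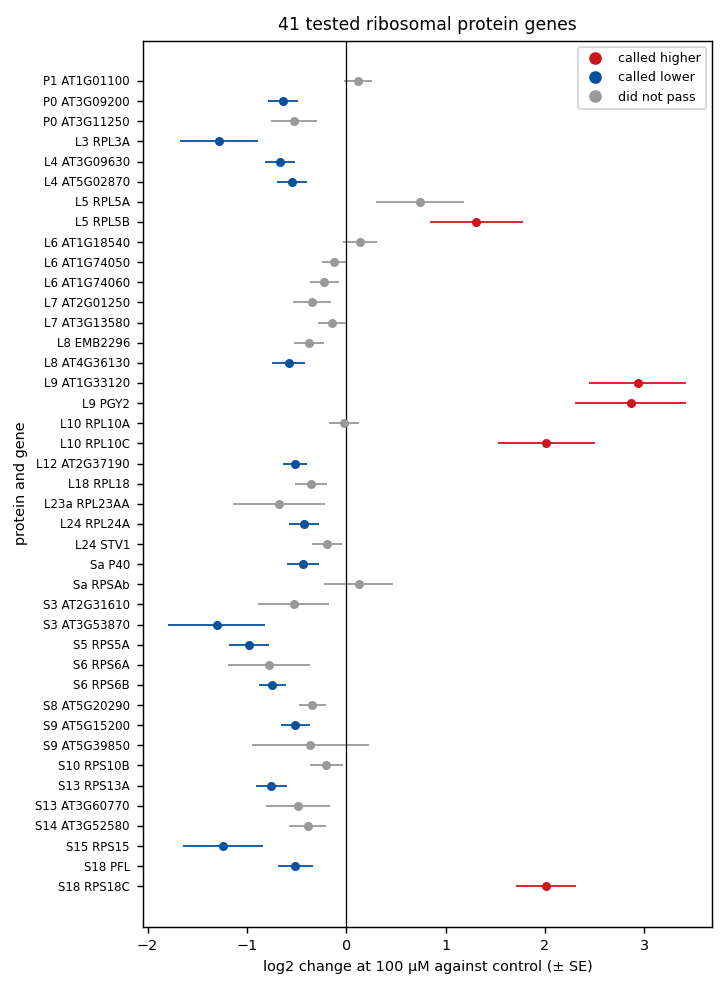
Log2 change at 100 µM against the controls (x axis, point ± SE) for the 41 tested genes, with protein and gene on the y axis, from stalk at the top through 60S to 40S. Red genes were called higher, blue lower, and grey did not pass. Changes of blue genes run from -1.30 to -0.43 and those of red genes from 1.31 to 2.93.

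The 21 genes that did not pass ran from -0.78 (RPS6A) to 0.75 (RPL5A). Several were highly counted with narrow spread. AT5G20290, the listed S8 gene, was at 2507 CPM on average in the controls. It was 0.34 lower on the log2 scale with libraries that did not overlap (edgeR adjusted p = 0.0625). The stalk gene AT1G01100 (P1) was at 1046 to 1190 CPM in the controls and 1046 to 1378 CPM at 100 µM. All 3 listed L6 genes and both listed L7 genes overlapped between the groups. STV1, the other listed L24 gene, differed by -0.20 ± 0.15 (edgeR adjusted p = 0.341). It is known for a role in reinitiation after upstream open reading frames and in gynoecium patterning.

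Against the 3 lower doses, which shared the light regime, 5 of the 41 genes were called higher and 24 lower. Over all genes tested, 23.1% were called higher and 19.2% lower. The median was -0.55, against -0.03 over all genes, and 19 genes had 100 µM libraries wholly below the 9 others (12.7% of all genes tested) and 4 wholly above (17.1%). The 5 and 15 genes called against the controls were called in the same direction here. The 2 comparisons share the 100 µM libraries. The 9 further genes called lower were AT3G11250 (P0), AT1G74060 (L6), AT2G01250 (L7), EMB2296 (L8), RPL18, STV1, AT5G20290 (S8), RPS10B and AT3G52580 (S14). Their changes ran from -0.78 in AT3G11250 to -0.31 in AT1G74060. Within the 2895 genes of 50 CPM or more, 29.1% were called lower, as were 23 of the 33 ribosomal genes of that level.

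**Figure D4:**
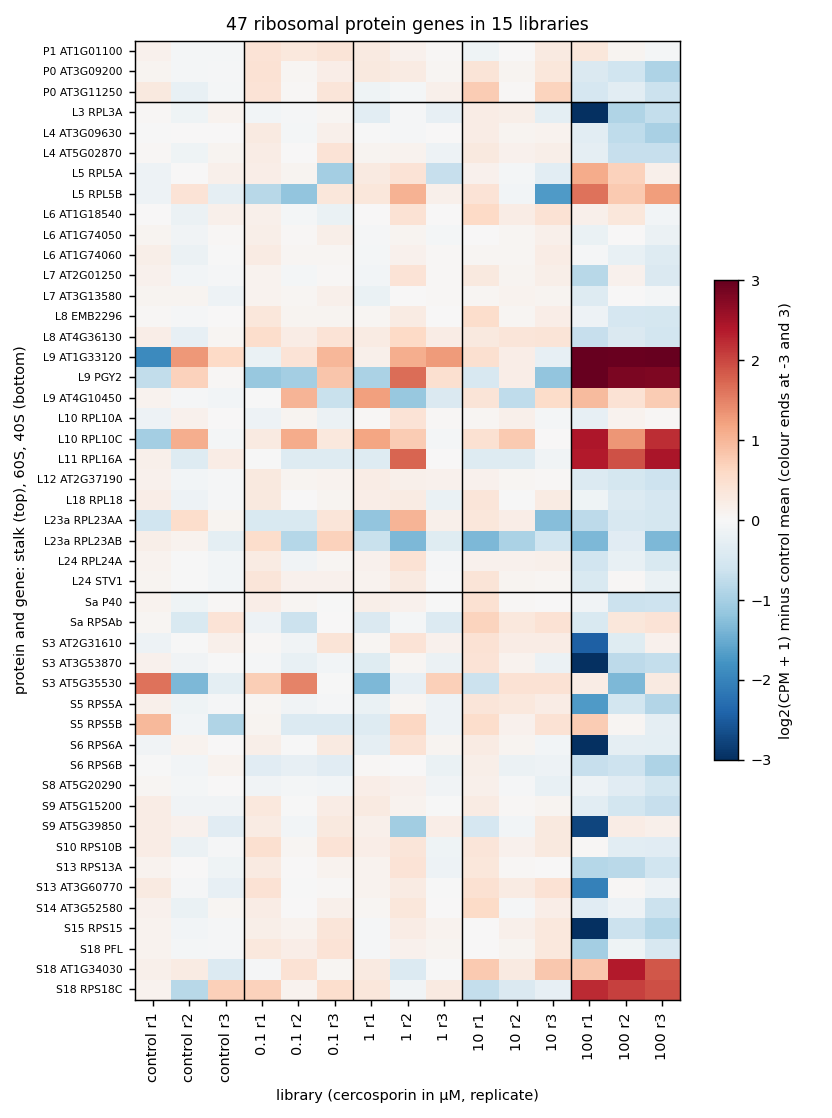
Level of each of the 47 genes (rows) in each of the 15 libraries (columns), as log2(CPM + 1) minus the mean of the 3 controls, with red above and blue below and colours ending at -3 and 3. The columns at 100 µM hold most of the strong colours, and replicate 1 there is darkest blue for RPL3A, AT3G53870, RPS6A, RPS15 and AT5G39850.

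At 0.1, 1 and 10 µM, 0 of the 41 genes were called against the controls by edgeR or by DESeq2. The shares of all genes tested called by edgeR were 0% at 0.1 µM, 0.183% at 1 µM and 0.00964% at 10 µM. At an unadjusted p under 0.05 there were 3, 1 and 2 ribosomal genes, and the smallest adjusted p was 0.802, 0.772 and 0.804. The libraries lay wholly above the controls for 5 genes at 0.1 µM, 2 at 1 µM and 9 at 10 µM, against 7.21%, 6.18% and 5.93% of all genes tested. They lay wholly below for 1, 0 and 0, against 5.87%, 7.23% and 5.36%. Median changes were 0.13 at 0.1 µM, 0.10 at 1 µM and 0.14 at 10 µM. All were above 0, while the medians over all genes lay between -0.01 and 0.00. These 3 comparisons share the control libraries. The widest single differences were 0.57 at 1 µM and -0.62 at 10 µM.

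Paralogues were next set side by side within each library. A log2 ratio of the counts of 2 paralogues, each with 0.5 added, does not depend on library scaling. Of 17 pairs, 2 differed between the 3 libraries at 100 µM and the 9 at lower doses in an exact two-sided permutation test, each with p = 0.00455 (adjusted over the 17 pairs 0.0386). This is the smallest p that 220 arrangements can give. The PFL to RPS18C ratio was 1.95 ± 0.57 (SD, n = 3) at 100 µM, 4.77 ± 0.45 (n = 9) at lower doses and 4.65 ± 0.83 (n = 3) in the controls. The RPL10A to RPL10C ratio was 3.91 ± 0.75, 5.52 ± 0.45 and 6.09 ± 1.07. In both pairs the ratios at 100 µM lay below all those of the other groups. In both, the gene that gained was the one with the smaller share. RPS18C and RPL10C averaged 41.7 and 26.5 counts per library. With all libraries thinned to the smallest, neither pair passed, with exact permutation p = 0.00455 for S18 and 0.00909 for L10 (both adjusted to 0.0773) and differences of -2.84 and -1.69 in place of -2.82 and -1.61.

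The S3 pair AT2G31610 to AT3G53870 was at 0.51 ± 1.15 at 100 µM and -0.52 ± 0.17 at lower doses (exact permutation p = 0.0136, adjusted 0.0773), with most of the spread from replicate 1. The L7 pair had an exact permutation p of 0.0455 and the L8 pair 0.0364, both adjusted to 0.155. The L4 pair was at -0.06 ± 0.14 at 100 µM and 0.02 ± 0.12 at lower doses, while both its members were called lower. The L9 pair was at -0.65 ± 0.23 and -0.39 ± 0.65, while both its members were called higher. For the other pairs the exact permutation p was 0.0727 or more, which does not show that their ratios were alike. Among these the S6 pair differed by -0.74, the Sa pair by -0.72, the L5 pair by -0.60 and the S9 pair by 0.54. Against the 3 controls an exact permutation test cannot go below p = 0.1, so those differences are values only. The ratios at 100 µM did not overlap the controls in 5 pairs, those of S18, L10, S3, L24 and of AT1G18540 to AT1G74060 (L6). With 3 libraries against 3, a share of 0.1 of all arrangements lies wholly apart, so this count is a description. Of these pairs only S18 and L10 also lay apart from the lower doses. The L24 and L6 differences from the controls were -0.22 and 0.36.

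**Figure D5:**
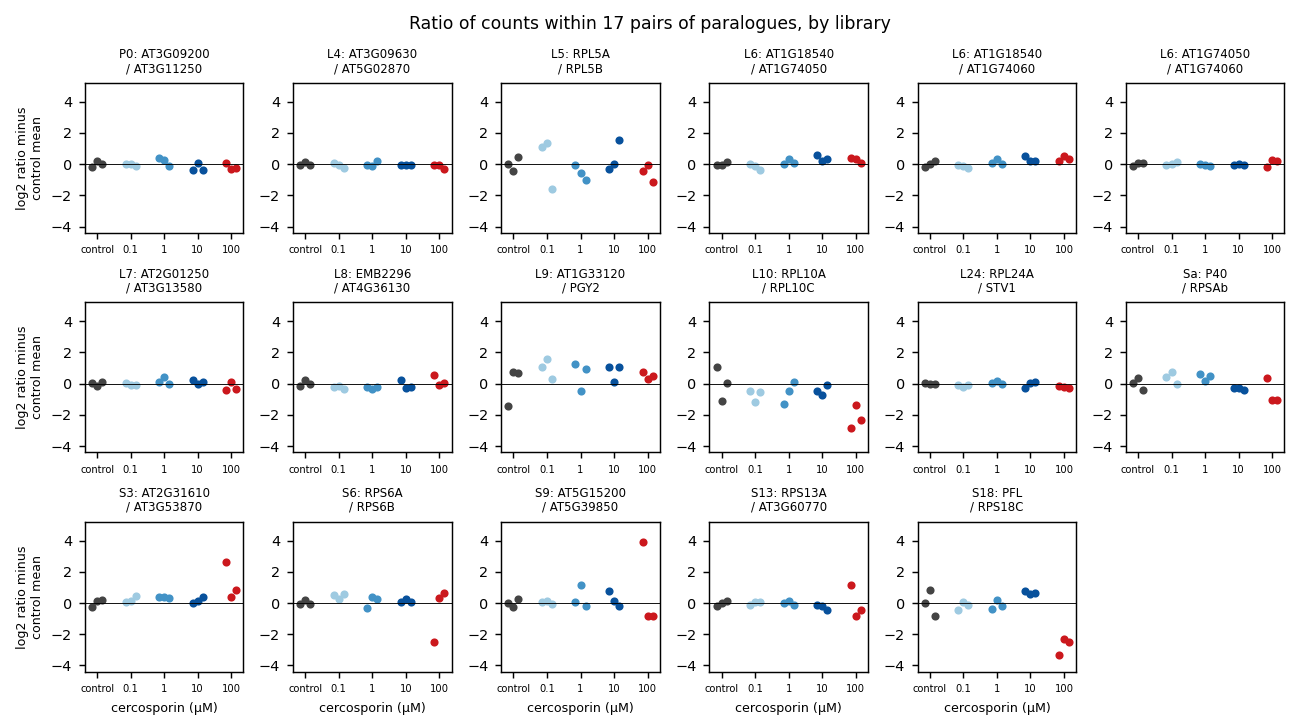
Log2 ratio of counts within each of 17 pairs of paralogues minus its control mean (y axes), by dose in µM (x axes), with 1 point per library. The ratio falls at 100 µM in the panels of PFL to RPS18C and RPL10A to RPL10C, to means of -2.70 and -2.18 on the plotted scale. Before the control mean was subtracted, the means were 4.77 at the lower doses and 1.95 at 100 µM for S18. For L10 they were 5.52 and 3.91.

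Other genes that make or use ribosomes were read from lists that are no part of the 47. The counts in the lists stand beside 14.6% of all genes tested called lower and 18.1% called higher at 100 µM against the controls. Of 25 tested translation factors, 12 were called lower and 3 higher at 100 µM against the controls, with a median of -0.41. EIF4A1, the RNA helicase of cap-dependent initiation, fell by 1.01, EIF4G by 0.92, and the poly(A)-binding protein genes PAB4 and PAB8 by 0.79 and 0.77. AT2G18110, an EF1B subunit gene, was higher by 3.24, ELF5A-1 by 2.30 and TCTP by 0.46. Of 10 ribosome assembly factors, 3 were lower and 0 higher, with a median of -0.68. NAP57, the homologue of dyskerin, which modifies ribosomal RNA, fell by 1.06, the pescadillo-like gene AT5G14520 by 1.01 and NOP56 by 0.64. Of 5 genes on a list of the TOR pathway and nucleolar stress, TOR fell by 1.54 and S6K2, an S6 kinase, by 1.30, and 3 did not pass.

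Nuclear genes for plastid ribosomal proteins gave 6 higher and 0 lower of 31, with a median of 0.01, and the share called higher was near the 18.1% of all genes. The largest changes were in RPL24 (AT5G54600), at 2.87, RPL21C at 2.72, RPL27 at 2.50 and AT3G13120 at 1.74. A further 73 genes of the table are annotated as cytosolic ribosomal proteins, and of the 60 tested 14 were lower and 5 higher, with a median of -0.22. The largest rise was in AT2G17360 (S4), from 8.18 ± 3.63 to 102.1 ± 21.6 CPM (SD, n = 3), at 3.61. AT3G02560 (S7) rose by 3.06, RPS15A by 2.09 and AT4G29410 (L28) by 2.04. The largest falls were in 3 genes for L41, a very small protein, AT1G56045 at -3.76, AT3G56020 at -3.19 and AT3G08520 at -2.36, followed by AT5G58420 (S4) at -1.58. The 2 S4 genes named here thus changed in opposite directions. None of the genes on these lists was called at 0.1, 1 or 10 µM. Of 8 root markers 3 were called higher, with PYK10 at 2.26, and of 5 shoot markers 2, and their part in the ribosomal results was not tested.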

How the data were processed

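RNA of 15 libraries, 3 for each of 5 groups, was extracted with Trizol and made into MARS-seq libraries, per the labels' protocols. Per the submitters' processing notes, the tools were bcl2fastq 2.17.1.14, cutadapt 1.8.3, STAR, HTSeq and DESeq2. Neither the genome build nor the use of strand in counting is stated in the sources used here. The deposited values used here are raw counts per gene, which per the file headers were not filtered on molecular identifiers, so they include amplification copies. The authors' normalized values and tests were not used, and the table held 0 columns of other samples.

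Counts were analysed with edgeR 4.0.16 in R 4.3.3 (TMM factors, filterByExpr by group, 1 quasi-likelihood model of group fitted to all 15 libraries, and Benjamini-Hochberg adjustment over 10374 genes at 0.05). The biological coefficient of variation was 20.6%. The fit and the permutation test were tested on simulated data. Of the identifiers, 14103 matched the TAIR10.1 reference, which gave names, promoters of 250 bases and 3'-end copies (blastn 2.17.0, at least 75 aligned bases at 90% identity within the last 500). Such a copy was found for 5 members and 6 a 3' end inside another gene. Ratios used exact permutation tests, written out over all arrangements in Python 3.11.15, with adjustment by statsmodels 0.14.6. Alternatives were other scaling factors, DESeq2 1.42.0, no filter, thinning to 834190 counts, fewer groups, a replicate block and leaving out libraries. Another summed the listed members per protein, so genes off the list were not part of a family sum. Values in every library were given for members changed by at least 1 on the log2 scale at 100 µM and for families whose paralogues parted. The members and lists were chosen with earlier results of these data known, and the split at 50 CPM after seeing the values. Of the 6 dividing-cell markers, 5 were not analysed here.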

Additional observations from a re-analysis of the deposited data

How the results depend on the processing

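No call changed direction. Of 811 values of called members under the alternatives, 748 kept their side of the threshold and 63 lost it. At 100 µM against the controls, the members called higher numbered 4 to 6 when 1 library was left out and 5 to 7 under the other fits per gene. They numbered 2 when the listed paralogues were summed per protein, which also lowers the number of units tested to 25. Those called lower numbered 10 to 16 with a library left out, 11 to 18 otherwise, and 8 when only the 2 groups compared were fitted, which leaves fewer samples for the spread. All 13 genes called in that fit were among the 20 called in the fit of all libraries. DESeq2 gave 7 higher and 12 lower, and edgeR without the filter 7 and 18, with RPL16A and AT1G34030 added to the higher genes in both. Against the lower doses, 5 to 7 were higher and 21 to 27 lower, with 2 higher for summed paralogues. Leaving out single libraries there gave 5 to 7 and 21 to 26.

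Paralogue ratios passed for 2 pairs with added counts of 0.1 or 2, for 3 with the controls among the comparison libraries, and for 0 with thinned counts. It was also 0 with pairs of at least 50 counts, which leaves out both passing pairs and so does not retest them, and with the replicate block, where both reached the smallest p of 64 arrangements, 0.0156 (adjusted 0.0664). Leaving out 1 library gave 0 to 3, since fewer arrangements raise the smallest p the test can give. The replicate numbers did not meet the rule for paired samples (correlations of deviations -0.14 to 0.27, over 0.1 in 6 of 30, 3 of these among replicate 2 of control, 0.1 and 10 µM), and the replicate block in edgeR gave 5 higher and 17 lower against the controls and 6 and 26 against the lower doses. Under other scalings the median change of all genes lay between -0.02 and 0.04. Thinning to the smallest total lost the calls of RPL24A, P40, AT3G53870 and PFL against the controls and none of the 5 higher calls.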

Other observations

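Among the tested members, the direction of the calls against the controls went with the level, a mean that includes the 100 µM libraries. Of the 8 members with a mean under 50 CPM, 4 were called higher and 0 lower at 100 µM against the controls. Over all 7479 tested genes of that level 18.7% were called higher and 11.2% lower. Against the 3 lower doses, 4 of these 8 members were called higher and 1 lower. Over all genes tested, of any level, 23.1% were called higher and 19.2% lower there. The shares among genes under 50 CPM were not computed for that comparison. Among the 33 members of 50 CPM or more, PGY2 was the 1 called higher, and it passed 50 CPM through its 100 µM libraries. The split was chosen after seeing the values and is a description.

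Counts from the chloroplast genome made up 0.205% to 0.248% of the 100 µM libraries and 0.451% to 0.490% of the controls. Counts from the mitochondrial genome made up 0.312% to 0.438% and 0.904% to 1.19%. In both the 100 µM libraries lay below those of all other groups. No test was run on these shares.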
